A study of Mus musculus with 9 samples.

Results

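The astrocyte genes Gfap, Aqp4, S100b, Slc1a2, Slc1a3, Aldh1l1, Gja1, Glul, Apoe and Nfia were examined in cultured adult neural stem cells (NSCs) during the first hours of differentiation. These 10 genes, a set of widely used markers and functional genes of astrocytes, were taken by their symbols from the 48526 genes of the count table, each symbol had 1 Ensembl identifier, and all 10 passed the filter on low counts. The cells came from the subependymal zone (SEZ), the stem cell niche along the lateral ventricles, of adult wild-type C57BL/6 mice (C57BL/6J in the study's methods, which give an age between 2 and 4 months), and they were expanded as neurospheres, floating clusters grown with growth factors. The libraries of 0 h were from the undifferentiated NSCs, and those of 1 h and 6 h from cells collected at these times after differentiation was induced. Differentiation was on an adhesive substrate (Matrigel in the methods) without EGF and with FGF. For cells fixed soon after induction, the methods describe seeding first in medium with EGF and FGF. They do not say whether this held for the sequenced samples. There were 3 replicates of each time point and 9 libraries in all, each of mRNA from a whole culture, with between 65871454 and 105592597 counted reads. No source used here says whether the replicates came from separate mice or cultures, so the p-values measure only the spread between these samples, which may be technical.

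Astrocytes clear glutamate from the space around neurons through the transporters encoded by Slc1a3 (GLAST) and Slc1a2 (GLT-1) and turn it into glutamine with glutamine synthetase, the product of Glul. They also handle water and ions, supply lipids and join into networks through gap junctions, while Gfap encodes the intermediate filament protein by which they are usually stained. The NSCs of the adult SEZ are themselves astrocyte-like cells that share several of these transcripts, including Gfap and Slc1a3, so the genes mark an astroglial programme and not mature astrocytes alone. The list of 8 NSC markers, among them Nes, Sox2 and Vim, fitted the label of the cells, with all 8 genes at 1 CPM or more at every time point and a summed level between 3998 and 5990 CPM. CPM gives the count of a gene relative to the total of its library, scaled by the TMM method, so that libraries of different depth can be compared.

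By the gene models of GENCODE M21 (mm10), Slc1a3 (ENSMUSG00000005360) is at chr15:8634124-8710764, Slc1a2 (ENSMUSG00000005089) at chr2:102658659-102790784 and Glul (ENSMUSG00000026473) at chr1:153899944-153909723. Aldh1l1 (ENSMUSG00000030088) is at chr6:90486427-90600203, Apoe (ENSMUSG00000002985) at chr7:19696109-19699188 and Gja1 (ENSMUSG00000050953) at chr10:56377330-56402513. Gfap (ENSMUSG00000020932) is at chr11:102887336-102900912, S100b (ENSMUSG00000033208) at chr10:76253853-76261159 and Nfia (ENSMUSG00000028565) at chr4:97772734-98118874. The identifier of Aqp4 is ENSMUSG00000024411. All are protein-coding, and the counts cover their annotated exons. Slc1a2 shares 189 exonic bases with the antisense gene Gm13872, Aldh1l1 shares 499 with the antisense gene Gm15756, and Glul shares 116 with Teddm2 on the opposite strand. The strand setting of the counting is not given in the sources used here, so reads of these stretches could belong to either gene.

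The sequences just upstream of the annotated starts are shown for Slc1a3 and Apoe, which were higher at 6 h, and for Gfap, which had the opposite direction. Each is the 250 bases before a RefSeq start (GRCm38.p6), written 5′ to 3′ on the strand of the gene, and none of the 3 overlaps an annotated exon. Capitals mark matches, on either strand, to TTGGC, the half-site bound by nuclear factor I (NFI) proteins such as that of Nfia, or to TTCNNNGAA, the motif of STAT proteins, which act in astrocyte gene expression downstream of cytokines. The 2 motifs share no position in these windows.
Slc1a3, chr15:8710808-8711057, minus strand: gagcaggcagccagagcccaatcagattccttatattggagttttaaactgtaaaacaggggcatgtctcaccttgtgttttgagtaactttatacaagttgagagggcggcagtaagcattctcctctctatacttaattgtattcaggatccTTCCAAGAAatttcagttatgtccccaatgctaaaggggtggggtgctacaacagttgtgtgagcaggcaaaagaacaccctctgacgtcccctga
Apoe, chr7:19699189-19699438, minus strand: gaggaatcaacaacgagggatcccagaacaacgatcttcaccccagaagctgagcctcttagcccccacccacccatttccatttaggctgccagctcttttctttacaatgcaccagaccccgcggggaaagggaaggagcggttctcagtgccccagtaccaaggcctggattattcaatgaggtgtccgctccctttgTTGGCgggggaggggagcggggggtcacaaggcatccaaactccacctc
Gfap, chr11:102897201-102897450, minus strand: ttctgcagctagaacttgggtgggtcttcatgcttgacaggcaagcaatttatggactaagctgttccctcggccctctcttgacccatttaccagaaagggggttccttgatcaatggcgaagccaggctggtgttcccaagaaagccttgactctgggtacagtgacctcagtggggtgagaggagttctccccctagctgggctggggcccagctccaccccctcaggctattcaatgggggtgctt
The Slc1a3 window held 1 match to the STAT motif and none to the NFI half-site, the Apoe window held 1 NFI half-site, and the Gfap window, which lies inside the longer gene model of GENCODE, held no match to either. Among all 32851 windows of this length in the table, 41.5% held an NFI half-site and 7.0% a STAT match. Entries were found for 9 of the 10 genes (not Aqp4), and 4 of them had an NFI half-site and 1 a STAT match in at least 1 window. Apoe has 3 windows in the table, of which the one shown belongs to the most upstream start, and 2 of the 3 held an NFI half-site. These matches describe letters in the sequence, and binding was not measured.

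Transcripts of all 10 genes were present in undifferentiated NSCs, at very unequal levels. To compare genes, CPM was divided by the length of the annotated exons in kb, and the means below are over all 9 libraries (SD, n = 9). This length joins the exons of all annotated transcripts and can exceed the longest transcript. It was 10257 against 3889 bases for Gja1, 2138 against 1408 for Apoe and 4516 against 4175 for Aldh1l1. The order of these genes thus depends on the length chosen. Slc1a3 was the most abundant at 136 ± 18.7 CPM per kb, higher than 98.7% of the tested genes, and Glul followed with 93.6 ± 20.8. Both lay above the next gene in the order in 9 of 9 libraries. Aldh1l1, which encodes a folate enzyme used as a pan-astrocyte marker, reached 32.2 ± 14.9 CPM per kb, and the lipoprotein gene Apoe reached 28.1 ± 6.77. Aldh1l1 exceeded Apoe in only 6 of 9 libraries, so their order did not hold against the spread. Gja1, the gap junction protein connexin 43, had 13.2 ± 3.44 CPM per kb, Nfia 8.23 ± 1.03 and Slc1a2 7.44 ± 3.68. Nfia exceeded Slc1a2 in 6 of 9 libraries, and that pair could not be ordered either.

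The remaining 3 genes, which include the best known astrocyte stain, were close to the bottom. S100b, a calcium-binding protein of mature astrocytes, had 1.29 ± 0.451 CPM per kb. Gfap had 0.259 ± 0.0971 CPM per kb and Aqp4, the water channel of astrocyte endfeet, had 0.258 ± 0.151, with Gfap above Aqp4 in 4 of 9 libraries. Only 17.9% of the tested genes were lower than either of them. Gfap rested on between 37 and 118 reads per library, against between 68119 and 156002 reads for Slc1a3, so that counting error weighs more on Gfap than on the transporters.

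**Figure D1:**
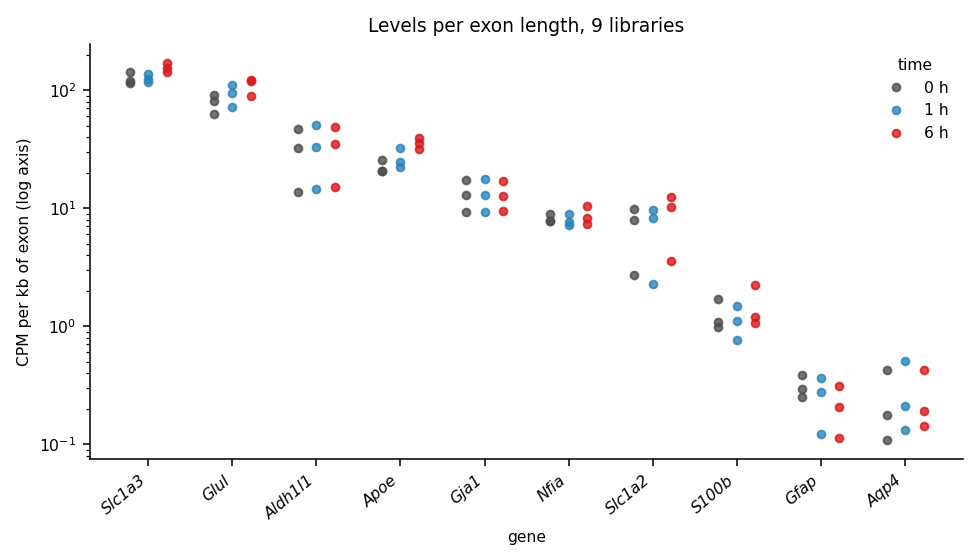
Level of each astrocyte gene in CPM per kb of annotated exon (log axis), with 1 point per library and 3 libraries per time point, and genes ordered by their mean. Slc1a3 and Glul sit at the top, with means of 136 and 93.6, and Gfap and Aqp4 at the bottom, with 0.259 and 0.258.

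The libraries of one replicate number resembled each other more than the libraries of one time point, and this was marked for most, but not all, of the astrocyte genes. The replicate numbers are those of the labels. For 8 of the 10 genes (not S100b and Apoe) the 3 replicates kept 1 order over the time points, against 30.8% of the tested genes. At 0 h the highest replicate was 3.94 times the lowest for Aqp4, 3.64 times for Slc1a2 and 3.43 times for Aldh1l1, while the median over the tested genes was 1.35. The other astrocyte genes were between 1.15 (Nfia) and 1.87 (Gja1), and Nfia, Apoe (1.24) and Slc1a3 (1.25) were below that median. The replicates did not differ in 1 common direction. Replicate 3 was the lowest for Slc1a2, Aqp4 and Gfap and the highest for Aldh1l1, Gja1 and Slc1a3 at all 3 times, and replicate 2 was the lowest for Aldh1l1 and the highest for Slc1a2 and Aqp4. Between replicate numbers lay 99.7% of the sum of squares of log2 CPM for Gja1, 99.5% for Aldh1l1, 97.1% for Aqp4 and 94.6% for Slc1a2, where the median of the tested genes was 48.9%. Apoe stood at the other end, with 17.8% between replicate numbers and 72.6% between time points, and Slc1a3 had 36.9% and 61.6%. What the libraries of one number share is not stated in the sources used here.

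**Figure D2:**
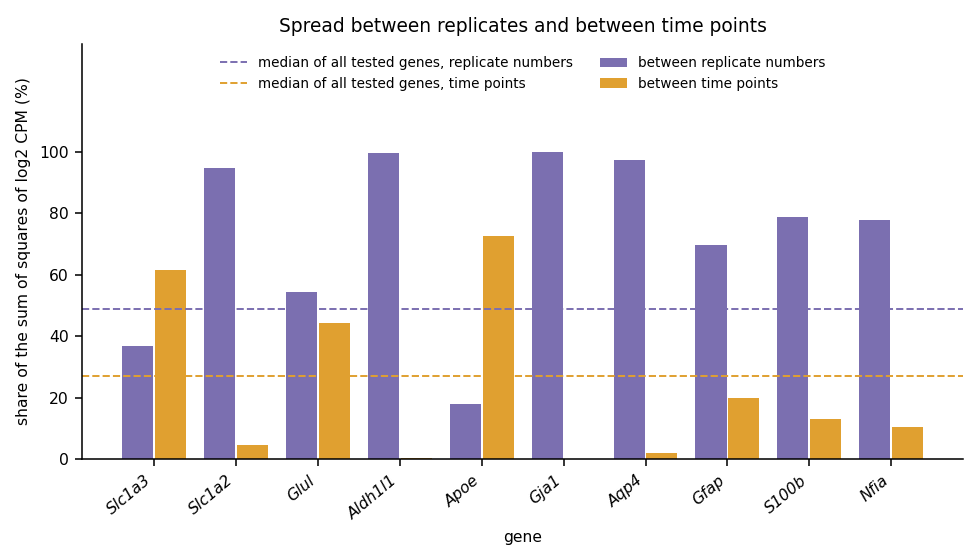
Share (%) of the sum of squares of log2 CPM that lay between replicate numbers and between time points, with 1 pair of bars per gene over 9 libraries and dashed lines for the medians of all tested genes (48.9% and 26.9%). Time points took the larger share for Slc1a3 and Apoe, and replicate numbers for the other 8 genes.

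Each comparison was therefore read from a pair of fits of the quasi-likelihood test of edgeR, 1 that had no factor but the time point and 1 that also had the replicate number as a block, which compares each time point with the 0 h library of the same number. The p-values were adjusted over the 18858 tested genes by the Benjamini-Hochberg method, and a gene passed the test when the adjusted value was under 0.05. At 6 h against 0 h, 0 of the 10 genes passed without the block, where 1.46% of the tested genes were called higher and 0.955% lower. At an unadjusted p under 0.05 there were 3 (Slc1a3, Glul and Apoe), and DESeq2 without the block called 1, Apoe. With the block 4 of the 10 were called higher, namely Apoe, Glul, Slc1a2 and Slc1a3, against 17.4% of all tested genes, and 1 was called lower, Gfap, against 17.5%. The median log2 fold change of the 10 genes was 0.17 without the block and 0.18 with it, where the median of all tested genes was 0.00 in both. In samples of whole cultures, fewer cells of a type and less RNA per cell cannot be told apart.

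Of the 3 genes of glutamate handling, all were higher at 6 h with the block. Slc1a3 stood at 1018, 979 and 1222 CPM at 0 h in replicates 1, 2 and 3, at 1064, 1004 and 1178 at 1 h, and at 1310.3, 1226 and 1456 at 6 h. Every library of 6 h was above every library of the earlier times, and the 0 h and 1 h groups overlapped. The log2 fold change of Slc1a3 at 6 h against 0 h was 0.31 (SE 0.05 with the block), which is 1.24-fold, with an adjusted p of 0.000277 with the block and 0.196 without it.

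Slc1a2, the transporter that predominates in the mature forebrain, had 104, 130.0 and 35.7 CPM at 0 h in replicates 1, 2 and 3, 109, 127 and 29.7 at 1 h, and 133, 163 and 46.8 at 6 h. Replicate 3 was far below the others at each time, so the groups overlapped although each replicate was higher at 6 h than at 0 h. The rise was alike in the 3 pairs, with log2 ratios of 0.36, 0.33 and 0.39. In the blocked fit the log2 fold change of Slc1a2 was 0.36 (SE 0.07, adjusted p 0.000883), while without the block it was 0.35 with an adjusted p of 0.868 and a 95% interval from -1.16 to 1.86.

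Glul had 299.7, 208 and 270.4 CPM at 0 h in replicates 1, 2 and 3, 367, 239 and 313 at 1 h, and 407, 295 and 399 at 6 h. Each replicate was higher at 1 h than at 0 h and higher again at 6 h, but replicate 2 was low throughout and the groups overlapped. At 6 h against 0 h the log2 fold change of Glul was 0.50 (SE 0.05 with the block), or 1.42-fold, with an adjusted p of 9.36e-06 with the block and 0.234 without it.

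Apoe encodes apolipoprotein E, through which astrocytes export cholesterol and other lipids. Its levels were 44.3, 44.2 and 54.6 CPM at 0 h in replicates 1, 2 and 3, 47.9, 52.5 and 69.4 at 1 h, and 67.7, 83.2 and 76.1 at 6 h. All 6 h libraries lay above all 0 h libraries, whereas replicate 3 at 1 h was above replicate 1 at 6 h. The log2 fold change at 6 h against 0 h was 0.67 in both fits, or 1.59-fold, with an SE of 0.08 and an adjusted p of 5.4e-05 with the block, and an SE of 0.15 and an adjusted p of 0.0652 without it. Without the block, the DESeq2 fit gave Apoe an adjusted p of 0.0028. In edgeR without the block, Apoe passed in 1 of 9 fits that left out 1 library (0.0373 without replicate 3 of 1 h), where the adjusted p reached 0.215. Microglia also make much Apoe. The 6 microglial markers (Aif1, Cx3cr1, P2ry12, Csf1r, Tmem119 and Itgam) summed to between 0.122 and 0.526 CPM in the 9 libraries, each was under 1 CPM at every time, and Itgam was at 0 in all libraries.

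Gfap moved the other way from a low level. It had 1.63, 1.24 and 1.06 CPM at 0 h in replicates 1, 2 and 3, 1.55, 1.17 and 0.514 at 1 h, and 1.32, 0.869 and 0.476 at 6 h. Each replicate was lower at 6 h than at 0 h, and the groups overlapped because replicate 1 at 6 h was above replicates 2 and 3 at 0 h. With the block Gfap fell by 0.63 on the log2 scale (SE 0.20, adjusted p 0.0282), and without it the log2 fold change was -0.57 with an adjusted p of 0.61. The blocked call was lost when replicate 3 of 0 h, replicate 2 of 6 h or replicate 3 of 6 h was left out, with log2 fold changes between -0.80 and -0.38 and adjusted p-values up to 0.173 over the 9 such fits.

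The other 5 genes did not pass the test at 6 h in either fit. Gja1 was the steadiest, with 95.1, 132 and 178 CPM at 0 h in replicates 1, 2 and 3, 94.7, 133 and 180.1 at 1 h, and 97.9, 129.7 and 173 at 6 h. Its 3 replicates kept their distance from each other and hardly moved in time, and the 95% interval of the log2 fold change with the block ran from -0.11 to 0.09. Aldh1l1 had 147, 61.7 and 212 CPM at 0 h, 149, 65.7 and 228 at 1 h, and 158, 68.2 and 219.7 at 6 h. It was slightly higher at 6 h in 3 of 3 replicates, with a log2 fold change of 0.10 (95% interval 0.00 to 0.20, adjusted p 0.114 with the block). Aldh1l1 passed in 1 of 9 blocked fits that left out 1 library (0.0259 without replicate 3 of 1 h), where the adjusted p reached 0.316. In DESeq2 with the block the adjusted p was 0.148. With GC and length trends removed and the block, the log2 fold change was 0.02 (adjusted p 0.705).

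Nfia encodes nuclear factor I A, a transcription factor that drives the switch to astrocyte production in development. Its levels were 96.6, 84.2 and 84.4 CPM at 0 h in replicates 1, 2 and 3, 96.3, 79.0 and 82.7 at 1 h, and 114, 79.5 and 90.0 at 6 h. At 6 h 2 of the 3 replicates were higher than at 0 h, and the blocked log2 fold change of 0.08 had a 95% interval from -0.04 to 0.21. S100b, between 1.14 and 3.32 CPM, had a blocked log2 fold change of 0.21 (95% interval -0.11 to 0.53), and Aqp4, between 0.673 and 3.16 CPM, one of 0.14 (-0.17 to 0.46). For these scarce transcripts the intervals leave room for a change as large as that of Slc1a3.

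**Figure D3:**
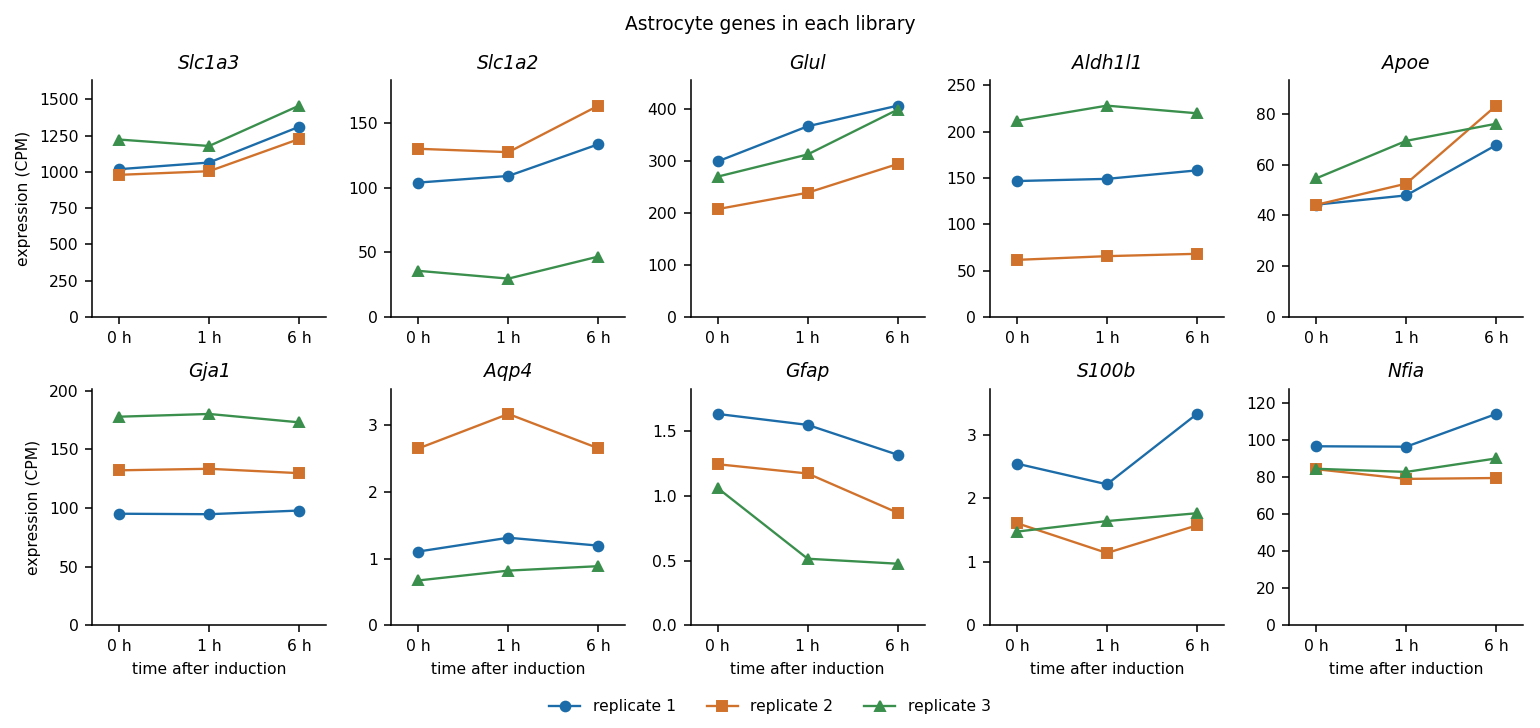
Expression of each astrocyte gene in CPM (linear axis from 0, with its own scale for each gene) at the 3 time points, with 1 line per replicate number. For Slc1a3, Slc1a2, Glul and Apoe all 3 lines end higher at 6 h than at 0 h, for Gfap all 3 end lower, and for Gja1 and Aldh1l1 the lines run almost level and far apart.

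At 1 h against 0 h, 0 of the 10 genes passed in edgeR without the block, where 0.0424% of the tested genes were called higher and 0.0% lower, and none of the 10 had an unadjusted p under 0.05. DESeq2 without the block called 0 of the 10 as well. Over all tested genes, 459 were lower at an unadjusted p under 0.05 in that edgeR fit, and DESeq2 called 44 lower. With the block 1 of the 10 was called higher, Glul, against 1.36% of the tested genes, and 0 lower, against 2.14%, with the same 2 counts in DESeq2 with the block and 0 of the 10 lower at an unadjusted p under 0.05. The log2 fold change of Glul at 1 h was 0.24 (SE 0.05) with an adjusted p of 0.0196, and each of its replicates was higher at 1 h. This call was lost in 5 of the 9 fits that left out 1 library (any library of 0 h, or replicate 1 or 2 of 1 h), where the adjusted p reached 0.135. Apoe was higher at 1 h in 3 of 3 replicates as well, with a log2 fold change of 0.24 and an adjusted p of 0.151 with the block. The other 8 genes had blocked log2 fold changes between -0.34 (Gfap) and 0.26 (Aqp4) and did not pass.

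Most of the rise took place between 1 h and 6 h for Slc1a2 and Slc1a3, whose blocked log2 fold changes at 1 h against 0 h were -0.07 and 0.02. At 6 h against 1 h, 0 of the 10 genes passed without the block (2, Slc1a3 and Apoe, at an unadjusted p under 0.05, and 0 in DESeq2), where 1.48% of the tested genes were called higher and 0.663% lower. With the block 4 were called higher, against 18.0% of the tested genes, and 0 lower, against 17.5%, and again DESeq2 with the block gave these counts and 0 were lower at an unadjusted p under 0.05. The 4 were again Slc1a2 (log2 fold change 0.43, adjusted p 0.000267), Slc1a3 (0.30, 0.000416), Glul (0.27, 0.0012) and Apoe (0.43, 0.00141). This comparison and the one of 6 h against 0 h share the libraries of 6 h and are not independent. S100b had a log2 fold change of 0.39 at 6 h against 1 h with an adjusted p of 0.0573 with the block. This became 0.0359 after trends in GC content and length were removed, and 0.0978 in DESeq2 with the block. S100b passed in 1 of 9 blocked fits that left out 1 library, where the adjusted p reached 0.249. The calls of Apoe, Glul, Slc1a2 and Slc1a3 at 6 h, against either earlier time, were kept in 9 of 9 blocked fits that left out 1 library.

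**Figure D4:**
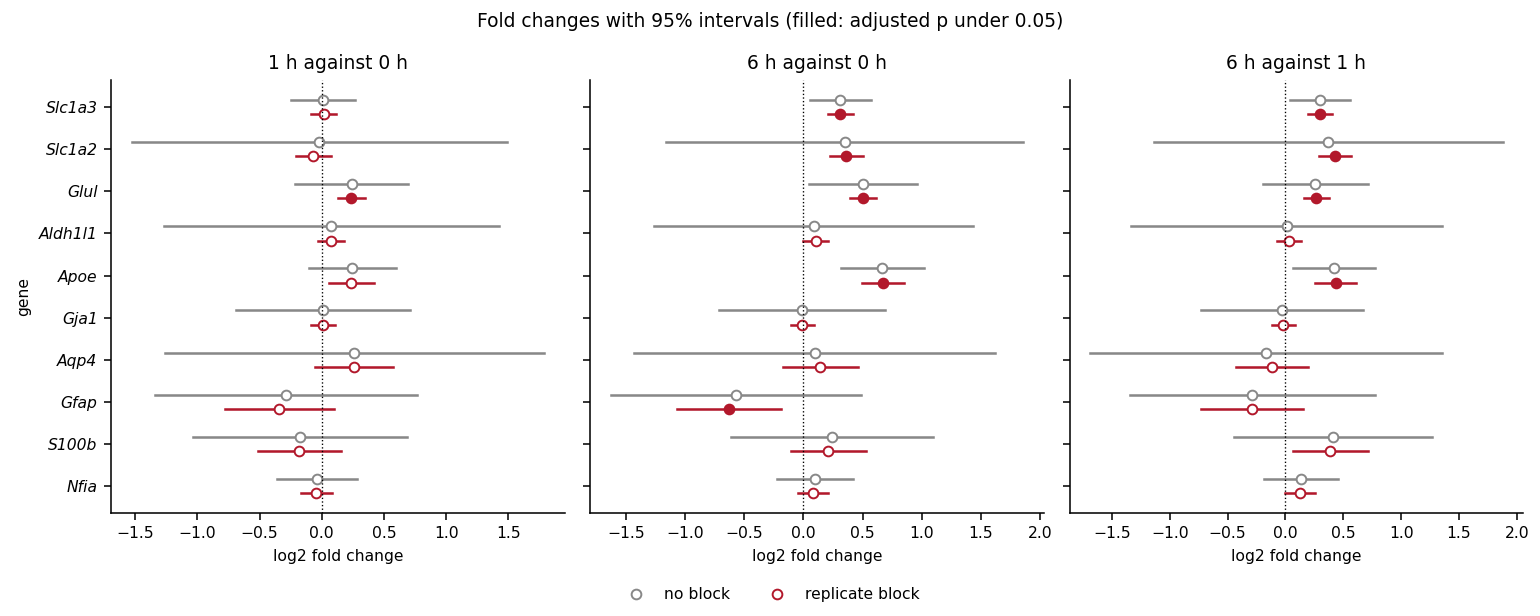
Log2 fold change of each astrocyte gene in the 3 comparisons, with 95% intervals from the edgeR fit without the block (grey) and with the replicate number as a block (red), and filled points for an adjusted p under 0.05. The red intervals are much narrower for the genes with wide replicate spread, such as Slc1a2, and at 6 h against 0 h they leave Apoe, Glul, Slc1a2 and Slc1a3 above 0 and Gfap below 0.

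A group of 4 lists of further genes, 69 in all with 65 tested, were read in the same fits, and with the block 14 were called higher and 22 lower at 6 h against 0 h, where 17.4% of all tested genes were called higher and 17.5% lower. The counts with the block were 5 higher and 3 lower at 1 h against 0 h, where the shares of all tested genes were 1.36% and 2.14%, and 14 higher and 21 lower at 6 h against 1 h, where they were 18.0% and 17.5%. Without the block the counts were 0 higher and 2 lower (Mertk and Nfib) at 6 h against 0 h, 0 and 0 at 1 h against 0 h (4 at an unadjusted p under 0.05), and 0 and 2 (Mertk and Mt2) at 6 h against 1 h. The shares of all tested genes in this fit were, in the same order, 1.46% and 0.955%, 0.0424% and 0.0%, and 1.48% and 0.663%. In DESeq2 without the block the list counts were 2 and 3, 0 and 0, and 2 and 5. Of all 18858 tested genes that DESeq2 fit called 929 higher and 813 lower, 55 and 44, and 932 and 763.

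Among the transport and membrane genes, 8 of 19 tested were called higher with the block at 6 h against 0 h and 4 lower, against 17.4% and 17.5% of all tested genes, and the median log2 fold change of the list was 0.12. Atp1b2, a beta subunit of the sodium pump, rose by 0.88 on the log2 scale (adjusted p 2.4e-06), and each of its 3 replicates went up, although the groups overlapped. Kcnj10, the inward rectifier potassium channel that takes up potassium in astrocytes, rose by 0.55 (adjusted p 7.68e-05), and Slc7a11, the cystine and glutamate exchanger, fell by 0.93 on the log2 scale (adjusted p 0.000109). At 1 h the sphingosine 1-phosphate receptor gene S1pr1 was the only member of this list that passed, with a log2 fold change of 0.45.

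Of the metabolic and secreted genes, 4 of 20 were called higher with the block at 6 h against 0 h and 6 lower, against the same 17.4% and 17.5% of all tested genes, with a median log2 fold change of 0.01. Ndrg2, a gene highly expressed in astrocytes, had the largest change among the 65 tested genes of the 4 lists in this comparison. It went from 15.7, 37.98 and 10.5 CPM at 0 h to 51.1, 120.3 and 40.5 at 6 h in replicates 1, 2 and 3. All 6 h libraries of Ndrg2 lay above all 0 h libraries, with a log2 fold change of 1.77 (3.40-fold, SE 0.06, adjusted p 4.26e-09 with the block and 0.201 without it). Cst3, the secreted protease inhibitor cystatin C, rose by 0.61 (adjusted p 1.94e-05). Mertk, a receptor for phagocytosis, fell by 0.90 on the log2 scale and was one of the few genes to pass without the block as well (adjusted p 2.6e-06 with it and 0.0159 without). Its levels were between 19.0 and 20.7 CPM at 0 h and between 9.62 and 12.6 at 6 h, and these groups did not overlap. The metallothionein gene Mt2 fell by 0.42 (adjusted p 0.000318). At 1 h Cst3 was higher by 0.39 and the cholesterol-esterifying enzyme gene Lcat lower, with a log2 fold change of -0.72, and the call of Cst3 was lost without replicate 2 or 3 of 0 h.

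Among the regulators of astroglia 2 of 14 were called higher with the block at 6 h against 0 h and 6 lower (17.4% and 17.5% of all tested genes), with a median log2 fold change of -0.08. The 2 relatives of Nfia that passed were both lower, Nfib by 0.45 on the log2 scale and Nfic by 0.48 (adjusted p 1.09e-05 and 0.00024). Nfib was between 360.3 and 409 CPM at 0 h and between 273 and 289 at 6 h, without overlap, and also passed without the block (adjusted p 0.027). The nuclear receptor gene Rorb fell by 0.72 (adjusted p 2.4e-06), and Hes5, a target of Notch signalling, rose by 0.68 (adjusted p 0.00596), a call that was lost without replicate 3 of 0 h, and without replicate 3 of 6 h the log2 fold change of Hes5 was 0.42. At 1 h Sox9 (0.43) and Rora (0.35) were higher, and Id3 (-0.54) and Nfic (-0.30) lower. The call of Rora was lost without replicate 1 or 2 of 0 h, and that of Nfic in 7 of 9 fits that left out 1 library.

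Of the genes of intermediate filaments and of reactive astrocytes, 0 of 12 tested were called higher with the block at 6 h against 0 h and 6 lower, where 17.4% of all tested genes were called higher and 17.5% lower, and the median log2 fold change of the list was -0.26. At an unadjusted p under 0.05, 1 of the 12 was higher with the block, and DESeq2 with the block called 0 higher and 5 lower. Osmr, the oncostatin M receptor, fell by 1.38 on the log2 scale (adjusted p 9.81e-05), the chemokine gene Cxcl10 by 0.95, the protease inhibitor gene Timp1 by 0.61 and Nes, the filament protein nestin of neural stem cells, by 0.43. Osmr went from 3.91, 8.12 and 1.70 CPM at 0 h to 2.09, 2.09 and 0.756 at 6 h in replicates 1, 2 and 3, lower in each replicate and overlapping between groups. Cxcl10 was higher at 1 h, with a log2 fold change of 0.97, a call that was lost without replicate 1 of 0 h. DESeq2 with the block gave no adjusted p for Cxcl10 at 1 h. Vim and Nes are also on the list of NSC markers.

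At 6 h against 1 h the transport genes Atp1b2 (log2 fold change 0.82) and Kcnj10 (0.61) were higher with the block and Slc7a11 (-0.87) was lower. Among the metabolic and secreted genes Ndrg2 was higher by 1.59 and Lcat by 0.34, and Mertk (-0.77) and Mt2 (-0.62) were lower. The call of Lcat was kept in 4 of 9 fits that left out 1 library and lost without replicate 1 or 2 of 1 h or any library of 6 h. Of the regulators, Hes5 (0.88) and Id3 (0.65) were higher and Rorb (-0.68) and Stat3 (-0.44), which carries cytokine signals to astrocyte genes, were lower. Id3, a target of BMP signalling, thus was lower at 1 h than at 0 h and higher at 6 h than at 1 h. Cxcl10 had the opposite course, with a log2 fold change of -1.92 at 6 h against 1 h, and Osmr (-0.96), Emp1 (-0.80) and Timp1 (-0.77) were lower as well. The courses of Id3 and Cxcl10 both rest on the libraries of 1 h, which the comparisons share. Levels were low, with Cxcl10 between 1.07 and 2.73 CPM at 1 h and between 0.264 and 0.814 at 6 h. At 6 h Emp1 was between 0.394 and 2.55 CPM and Timp1 between 0.439 and 5.22. When 1 library was left out, the log2 fold change of Osmr at 6 h against 1 h was between -1.24 and -0.57, with the smallest change without replicate 2 of 6 h.

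**Figure D5:**
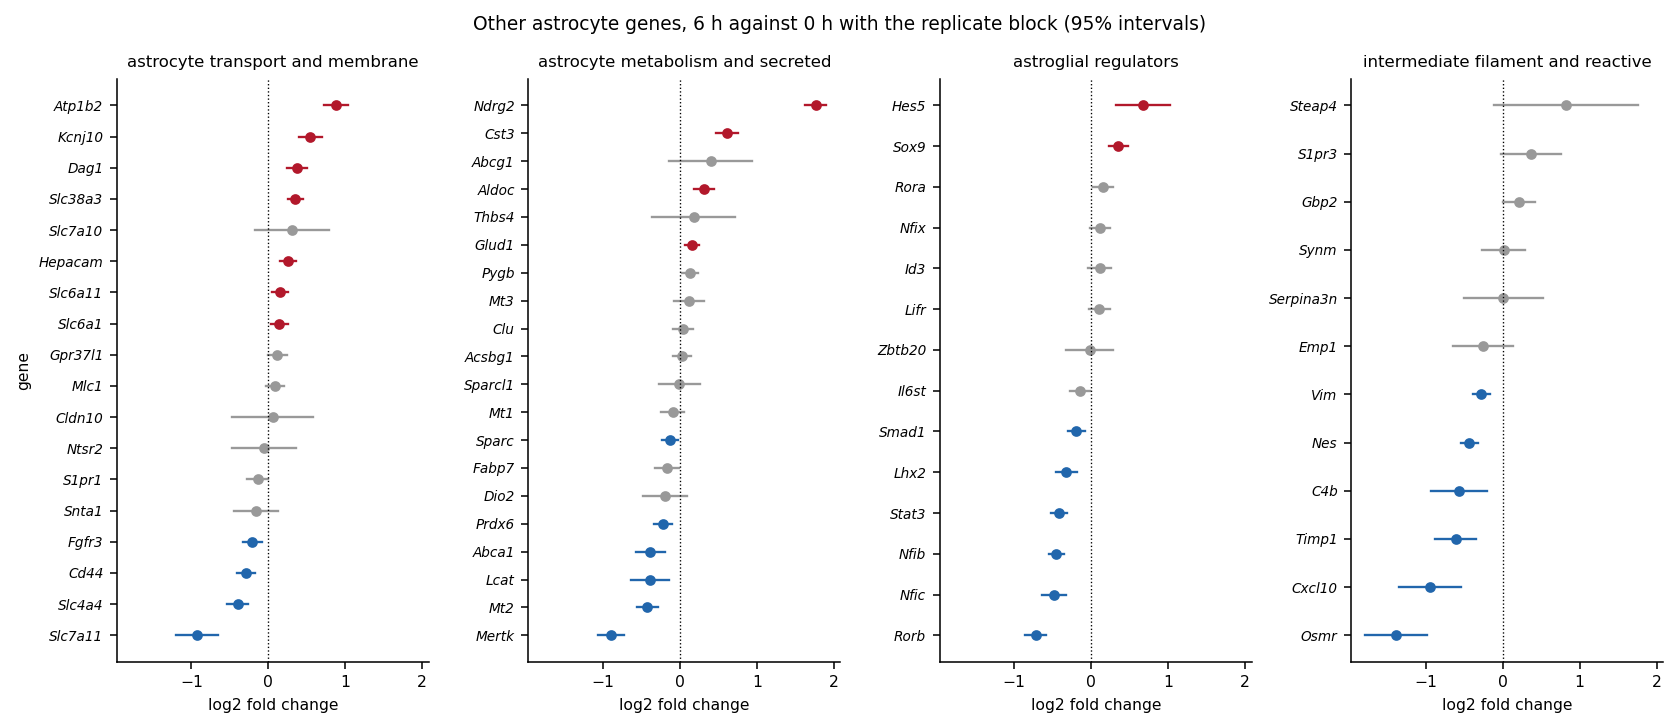
Log2 fold change at 6 h against 0 h, with 95% intervals from the edgeR fit with the replicate block, of tested genes of the 4 further astrocyte lists. Red genes were called higher, blue lower and grey not called; Ndrg2 and Atp1b2 lie farthest to the right, and Osmr, Cxcl10 and Slc7a11 farthest to the left.

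Markers of other cell types were read over the same hours. The summed level of the 6 oligodendrocyte progenitor (OPC) markers was between 1690 and 2289 CPM at 0 h, between 1834 and 2196 at 1 h and between 2163 and 2511 at 6 h. Most of this sum came from Olig1 and Olig2, with means of 1228 and 633 CPM at 0 h. Cspg4 averaged 65.9 CPM at 0 h, Pdgfra 11.1, Gpr17 0.833 and Sox10 0.0893. With the block 5 of the 6 OPC markers were called higher at 6 h against 0 h (4 in DESeq2 with the block), against 17.4% of all tested genes. Without the block 1 was called higher in edgeR, against 1.46%. Of the 8 neuron and neuroblast markers 5 were called higher with the block and 1 without it, against 17.4% and 1.46% of all tested genes. With the block 3 of the 8 had a negative log2 fold change. Of the 8, 0 were called lower, against 17.5% of all tested genes, and 1 was lower at an unadjusted p under 0.05. Their sums were between 972 and 1493 CPM at 0 h and between 1016 and 1585 at 6 h. Most of this was Map2, between 925 and 1463 CPM at 0 h and between 880 and 1508 at 6 h. Syt1, the next highest, averaged 22.8 CPM at 0 h and 70.3 at 6 h, while Dcx averaged 1.08 at 0 h and 0.811 at 6 h. The list of 8 NSC markers had 3 called higher and 2 lower with the block, against 17.4% and 17.5% of all tested genes. Without the block 2 were called higher and 0 lower (0 lower also at an unadjusted p under 0.05 and in DESeq2), against 1.46% and 0.955%. The sum of the NSC markers went from between 4822 and 5894 CPM at 0 h to between 3998 and 5199 at 6 h. Oligodendrocyte markers summed to between 54.0 and 121 CPM over the 9 libraries, ependymal markers to between 40.8 and 94.98 and endothelial and mural markers to between 6.49 and 19.7. The part of these shifts in the changes of the astrocyte genes was not tested.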

How the data were processed

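RNA from NSC cultures at the 3 time points was sequenced by the authors as stranded mRNA libraries. The deposited values are raw counts of reads per Ensembl gene, which the authors made with STAR 2.5.3a on mm10 (GRCm38), per the labels and the submitters' processing notes, without normalisation. The strand setting is not given in the sources used here. Their own differential expression used DESeq2 1.22.1.

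The tests were run with edgeR 4.0.16 and, as an alternative, DESeq2 1.42.0 under R 4.3.3 (with limma 3.58.1), and Python 3.11.15 was used for tables and plots. Genes were filtered with filterByExpr (minimum count 10, minimum total count 15), which left 18858, and scaled with TMM (factors between 0.972 and 1.017). All 9 libraries were fitted together with glmQLFit and glmQLFTest, and p-values were adjusted by the Benjamini-Hochberg method with a threshold of 0.05. Intervals are 95% intervals. Log2 CPM for sums of squares used a prior count of 2. Symbols, exon lengths and positions came from GENCODE M21, which held 48144 of the 48526 identifiers, and upstream sequences from RefSeq (GRCm38.p6). Chi-square over degrees of freedom was at least 13.6 for each pair of libraries, so none was entered more than once. Simulated counts with known changes were used to check both fits.

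The replicate numbers come from the labels. After the mean of each time point was subtracted, libraries with the same number had correlations between 0.733 and 0.800 in 9 pairs. These correlations show that the numbers pair the samples, and the fit with the number as a block stands beside the fit without it. Libraries with other numbers had correlations between -0.462 and -0.314 in 18 pairs. Subtracting the mean makes these negative once libraries of the same number correlate, so they are not separate evidence. The alternatives were the block, DESeq2, RLE scaling, library totals, no filter, leaving out each library, and taking out each library's GC and length trends (splines with 4 degrees of freedom, 99.6% of genes). After the data had been seen, leaving out all 3 libraries of a replicate number was added. The 10 genes and the further lists were chosen with earlier results of these data known. All 10 genes are named in each comparison, and from each further astrocyte list up to 4 genes per comparison were named, chosen by the size of the log2 fold change from genes that averaged 1 CPM or more and passed with the block, apart from an item that is not reported here. The other markers are given by counts and ranges, with the levels of some genes where a sum came mostly from few of them.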

Additional observations from a re-analysis of the deposited data

How the results depend on the processing

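The numbers of astrocyte genes called depended on the replicate block. At 6 h against 0 h the count was 0 in edgeR, 5 with the block, 1 in DESeq2, 5 in DESeq2 with the block and 5 with the block and GC and length trends removed. When 1 library was left out without the block it was between 0 and 1. With the block it was between 4 and 6 in the 12 fits that left out 1 library or all 3 of a replicate number. At 1 h against 0 h the count was 0, and 1 in each of the 3 fits with the block, where leaving out libraries gave between 0 and 2. At 6 h against 1 h it was 0, 4 with the block in edgeR and in DESeq2, and 5 with the block and trends removed. RLE scaling, library totals and no filter changed no call without the block. The block changed no other call of the 10 genes. Leaving out all 3 libraries of replicate 1 or of replicate 2 lost the call of Glul at 1 h, and that of replicate 2 or of replicate 3 the call of Gfap at 6 h. The median log2 fold change at 1 h was 0.0536 with trends removed, and between -0.023 and 0.0958 without 1 library (between -0.0042 and 0.0393 with the block). At 6 h it was between 0.16 and 0.31 against 0 h and between 0.0797 (without replicate 1 of 6 h) and 0.3012 against 1 h without the block, with the high ends without replicate 3 and replicate 2 of 6 h. With the block it was between 0.12 (without replicate 3 of 0 h) and 0.29 (without all 3 libraries of replicate 2) against 0 h, and between 0.17 and 0.24 against 1 h.

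Directions turned for values that had not passed with or without the block on all 9 libraries, apart from Slc1a2 at 6 h against either earlier time, which passed with the block and turned only without it. Without 1 library and without the block, Aldh1l1 was between -0.38 and 0.50 at 1 h, between -0.31 and 0.51 at 6 h against 0 h and between -0.38 and 0.47 at 6 h against 1 h. For Aqp4 these ranges were -0.48 to 1.00, -0.50 to 0.83 and -0.77 to 0.57, for Gja1 -0.24 to 0.26, -0.25 to 0.23 and -0.26 to 0.23, for Nfia -0.12 to 0.0291, -0.0614 to 0.21 and -0.021 to 0.25, and for Slc1a2 -0.40 to 0.40, -0.0311 to 0.72 and -0.0497 to 0.74. Gfap was between -0.63 and 0.0526 at 1 h and between -0.68 and 0.0572 at 6 h against 1 h, S100b between -0.43 and 0.11 at 1 h and between -0.17 and 0.52 at 6 h against 0 h, and Slc1a3 between -0.0497 and 0.11 at 1 h. With the block, leaving out libraries gave Gja1 between -0.0006 and 0.0341 at 1 h, -0.0364 and 0.0118 at 6 h against 0 h and -0.0495 and 0.0036 at 6 h against 1 h, Nfia between -0.0906 and 0.0164, Slc1a2 between -0.13 and 0.0304 and Slc1a3 between -0.0093 and 0.0545 at 1 h, and Aldh1l1 between -0.0015 and 0.0708 at 6 h against 1 h. With trends removed and the block, Slc1a2 was 0.0112 and Nfia 0.0547 at 1 h, Gja1 0.0347 at 6 h against 0 h and Aldh1l1 -0.0637 at 6 h against 1 h. With library totals, Slc1a3 was -0.0028 and Gja1 -0.0017 at 1 h, and Gja1 0.0049 and 0.0066 at 6 h against 0 h and 1 h. The cause was not tested. There were 3 libraries per time and between 37 and 289 reads of Gfap and Aqp4 per library. At 6 h against 0 h the SE of Aqp4 was 0.67 without the block and 0.15 with it. For Gfap, which passed with the block in this comparison, the SE was 0.46 and 0.20. The part of read depth in the width of these intervals was not tested.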
